A study of Mus musculus with 8 samples.

Results

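Homologous recombination repairs broken or stalled DNA by copying an intact sister chromatid, and 9 genes of this pathway are described here across all libraries of the study: Brca1, Bard1, Brip1, Topbp1, Palb2, Brca2, Rad54l, Xrcc2 and Xrcc3. They were chosen by name, with earlier results of these data known. Each had a single entry in the deposited tables, 9 of 20388 gene identifiers kept, and 9 of 9 passed the filter on low values that left 11867 genes for testing. Polyadenylated RNA came from mouse embryonic stem cells with both copies of Htatsf1 floxed (written tatsf1 flox/flox) and CreERT2, a recombinase that tamoxifen activates. HTATSF1 is an RNA-binding protein. All groups carry these alleles and were grown on mouse embryonic fibroblasts (MEFs) in conventional stem cell medium, and they differ in agent and time: ethanol for 48 h, tamoxifen for 48 h, ethanol for 72 h and tamoxifen for 72 h, with 2 libraries each and 8 in all. The sources used here do not give what drives CreERT2, or say that a group's libraries are from different cultures. The p-values thus reflect library-to-library spread, possibly only technical. No group had tamoxifen without the floxed gene, so tamoxifen and deletion cannot be told apart.

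In this pathway BRCA1 and BARD1 form a ubiquitin ligase that acts early at the break, and BRIP1 is a helicase that binds BRCA1. TOPBP1 is a scaffold that activates the checkpoint kinase ATR at stressed replication forks. HTATSF1 protein itself has been described as a partner of TOPBP1 at damaged DNA in human cells. PALB2 links BRCA1 to BRCA2, and BRCA2 prepares the single-stranded DNA at the break for strand exchange. RAD54L is a motor protein that helps this strand invade the intact duplex, and XRCC2 and XRCC3 belong to small complexes that support strand exchange. Embryonic stem cells divide quickly, spend much of the cycle in S phase and rely on this pathway at replication forks.

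Sequence from the 250 bases before the gene start is shown for the 4 members that fell most with tamoxifen, against ethanol, at 72 h. It is also shown for Topbp1, which fell less, and for Xrcc3, which did not pass the test, so that promoters can be compared. The sequences are from RefSeq on GRCm38.p6, a later build than the mm9 of the expression tables, and 8 of 9 members matched an entry. The parts of each 250-base window that GENCODE M21 annotates as exon were left out. These include exon bases of Bard1 and Topbp1 themselves, so their stretches end 175 and 113 bases before the RefSeq start. Capitals mark matches on either strand to E2F-type strings (TTCCCGC or TTCGCGC or TTGCCGC or TTGGCGC), to the CCAAT box (CCAAT) and to the CHR string TTTGAA, which is known from cell cycle genes.
Rad54l (chr4:116123691-116123839, minus strand): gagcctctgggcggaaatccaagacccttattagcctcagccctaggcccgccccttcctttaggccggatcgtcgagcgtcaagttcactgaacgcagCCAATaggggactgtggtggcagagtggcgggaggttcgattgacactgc
Bard1 (chr1:71103147-71103222, minus strand): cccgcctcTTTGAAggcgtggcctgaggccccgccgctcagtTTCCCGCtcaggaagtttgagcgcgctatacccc
Brip1 (chr11:86201194-86201369, minus strand): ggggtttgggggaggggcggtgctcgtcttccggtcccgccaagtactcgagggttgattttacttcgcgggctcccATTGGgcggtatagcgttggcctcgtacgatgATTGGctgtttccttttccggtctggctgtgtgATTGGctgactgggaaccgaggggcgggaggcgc
Brca2 (chr5:150522371-150522620, plus strand): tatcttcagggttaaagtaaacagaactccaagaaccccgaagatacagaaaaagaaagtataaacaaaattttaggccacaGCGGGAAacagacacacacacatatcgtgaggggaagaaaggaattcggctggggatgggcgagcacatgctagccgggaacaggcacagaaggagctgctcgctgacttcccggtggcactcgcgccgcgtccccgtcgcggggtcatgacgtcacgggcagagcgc
Topbp1 (chr9:103305083-103305214, plus strand): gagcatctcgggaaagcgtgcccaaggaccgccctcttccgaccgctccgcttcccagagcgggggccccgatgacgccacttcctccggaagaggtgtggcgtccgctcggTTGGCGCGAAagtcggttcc
Xrcc3 (chr12:111813880-111814129, minus strand): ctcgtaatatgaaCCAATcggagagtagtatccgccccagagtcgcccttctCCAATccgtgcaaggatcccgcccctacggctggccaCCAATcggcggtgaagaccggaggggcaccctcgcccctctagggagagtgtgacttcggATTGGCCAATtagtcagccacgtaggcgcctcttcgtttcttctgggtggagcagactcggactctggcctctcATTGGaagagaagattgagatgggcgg
E2F-type strings, known from promoters of S phase genes, were in the windows of 3 of 8 members (Brca2, Topbp1 and Bard1), against 7.89% of 32851 RefSeq windows of the same length. A CCAAT box was in 4 of 8 (Brca1, Rad54l, Xrcc3 and Brip1), against 33.8% of windows, and TTTGAA in 1 of 8 (Bard1), against 16.0%. In Topbp1 a pair of E2F-type matches on opposite strands overlap. The 3 CCAAT boxes of Brip1 and 6 of Xrcc3 lay in promoters of a member that fell and of one that did not pass. These are matches of letters, not measured sites. The RefSeq windows were not limited to the genes tested here or matched in base content, so the shares do not show enrichment.

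Levels are given in FPKM, a measure of fragments scaled to transcript length and library size. Each change is a difference of log2(FPKM + 1), so that of a low gene is understated. Htatsf1, the deleted gene, stood at 23.0 and 21.7 FPKM in the ethanol libraries and 4.13 and 3.78 in the tamoxifen libraries of 48 h. At 72 h it stood at 22.7 and 22.7 in ethanol and 4.12 and 4.63 in tamoxifen, so the gene followed the label in all 8 libraries. The fragments implied by the deposited intervals summed to 8.99 to 16.85 M per library. All 16 listed pluripotency markers and all 34 listed fibroblast markers passed the filter, so RNA of markers of both cell types was measured. Passing does not tell which cells that RNA came from. Sox2, outside that list, is listed at 0 in all FPKM tables, while the authors' deposited table holds scaled counts for it. In summed FPKM the fibroblast list ran from 1210 to 1250 in the ethanol libraries of each time, from 1720 to 1770 in tamoxifen at 48 h and from 2260 to 2430 in tamoxifen at 72 h. The pluripotency list ran from 3680 to 3740 and 3510 to 3620 at 48 h, and from 4630 to 4770 and 3680 to 4120 at 72 h, in ethanol and tamoxifen. In such bulk samples fewer cells of a type and less RNA per cell cannot be told apart.

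The members differed widely in level. Per length, Topbp1 was the most abundant in each of the 4 groups, with a mean of 39.0 ± 0.65 FPKM (SD, n = 2) in ethanol at 48 h. Rad54l (16.4), Brca1 (15.9), Bard1 (10.02) and Brca2 (9.99) followed, then Xrcc2 (7.56), Palb2 (7.31), Xrcc3 (4.86) and Brip1 (3.03), all as mean FPKM in that group. Among neighbours in this order the values of Rad54l and Brca1 overlapped, as did those of Bard1 and Brca2. In tamoxifen at 72 h the order was Topbp1 (45.6), Brca1 (15.1), Rad54l (10.7), Bard1 (10.2), Brca2 (8.47), Palb2 (6.80), Xrcc2 (6.26), Xrcc3 (5.74) and Brip1 (2.88), and Rad54l no longer stood level with Brca1. There Rad54l overlapped Bard1, Palb2 overlapped Xrcc2 and Xrcc2 overlapped Xrcc3. The fragments behind a single value ran from 93 for Xrcc3 to 4375 for Topbp1, so the low members carry the larger counting error.

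**Figure D1:**
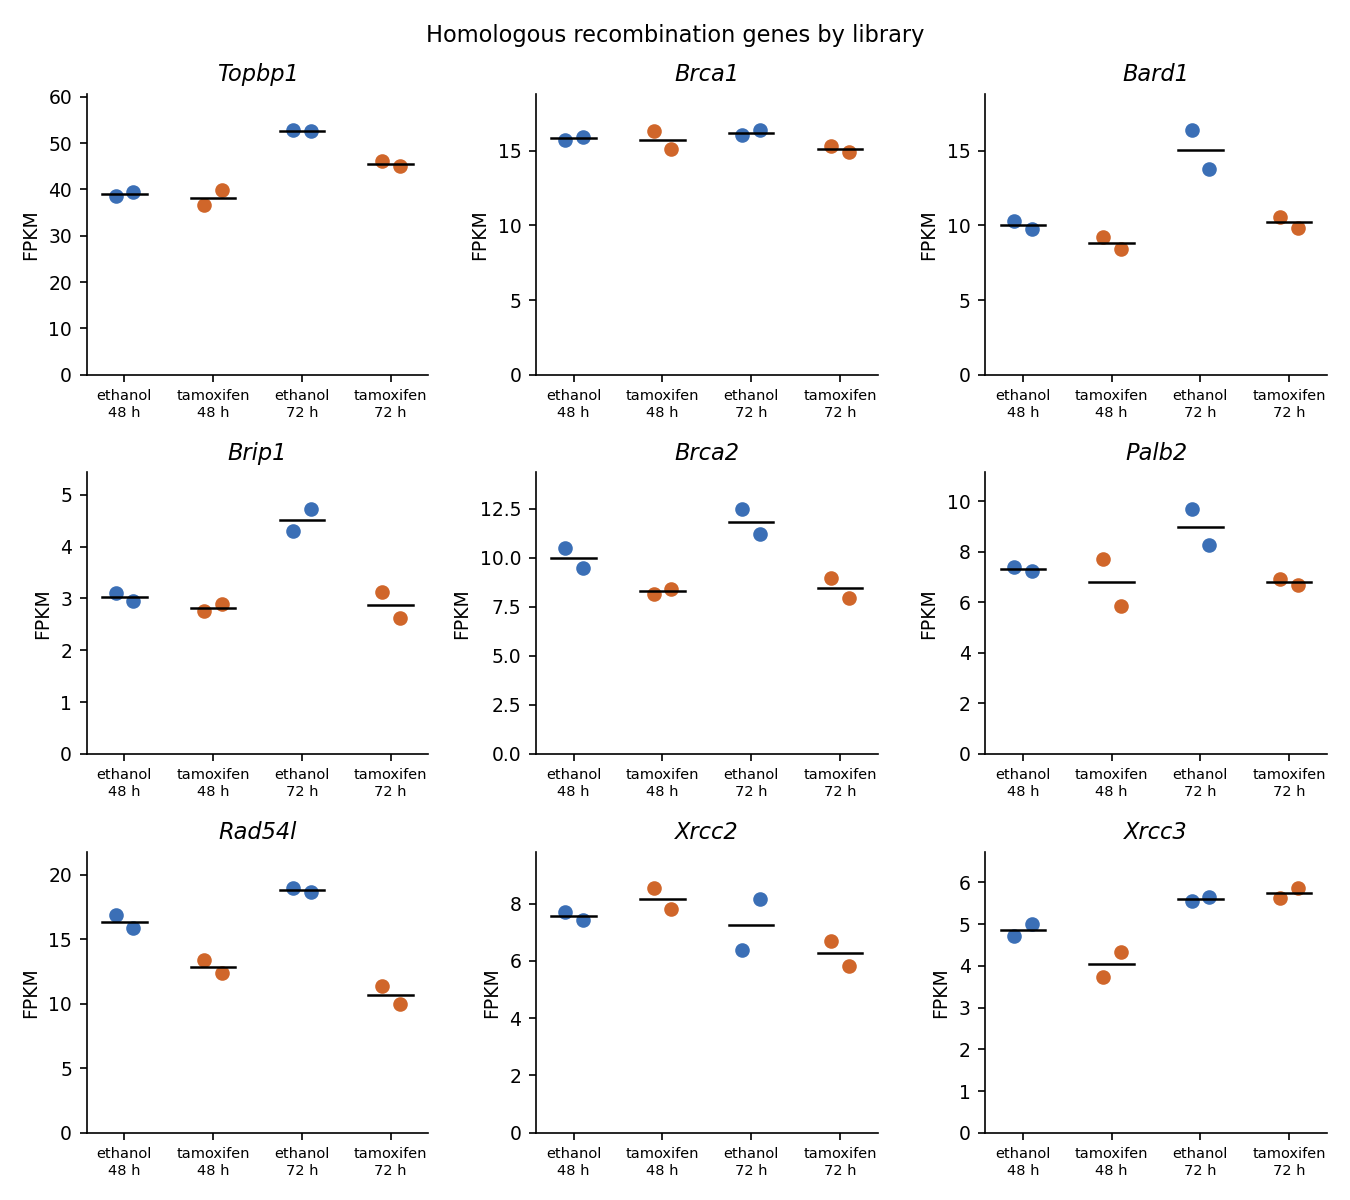
FPKM of each of the 9 genes in the 8 libraries, with ethanol in blue and tamoxifen in orange, points for libraries and a bar for the group mean. Each vertical axis starts at 0. All genes but Xrcc2 and Xrcc3 have their highest group mean in ethanol at 72 h. Rad54l is lower in tamoxifen at both times, and Brca1 stays between 14.9 and 16.4 FPKM in all libraries.

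With tamoxifen for 72 h most of the 9 genes were lower than with ethanol for 72 h. In comparisons of treatments, fell and rose mean lower and higher in tamoxifen than in ethanol of the same time. They do not mean a change from an earlier level. Of the 9 genes 6 fell (Rad54l, Bard1, Brip1, Brca2, Palb2 and Topbp1) and 0 rose in limma's test at an adjusted p of 0.05, where 18.5% of all genes tested fell and 20.1% rose. The median change of the 9 was -0.35, and that of all genes tested was -0.005 (log2). Both tamoxifen libraries lay below both ethanol libraries for 7 of 9 members, the 6 that fell and Brca1, against 34.5% of all genes. Summed over the 9 genes, the libraries held 139 to 143 FPKM in ethanol and 109 to 115 in tamoxifen at 72 h. At that time 33 of 34 fibroblast markers rose (median 1.04) and 9 of 16 pluripotency markers fell (median -0.325) in the libraries compared. Of 25 listed p53 targets 21 rose (median 0.79), but some of that list had been picked for their rise in these libraries. The part of these markers and targets in the fall of the recombination genes was not tested.

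With tamoxifen for 48 h few of these genes passed the test, though 8 of 9 stood below 0, beside 5421 of 11867 genes tested. With 2 libraries per group a missing call does not show that a gene was unchanged. Rad54l fell, 1 of 9 members against 4.47% of all genes, and 0 members rose against 7.88%. The median of the 9 was -0.105, beside 0.02 for all genes tested. Both tamoxifen libraries lay below both ethanol libraries for 5 of 9 members (Brca2, Bard1, Rad54l, Xrcc3 and Brip1), where 26.1% of all genes did. After median-ratio scaling the calls over all genes at 48 h split into 818 rises and 768 falls, against 935 and 531 without it, and Rad54l remained the 1 member called.

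Among the early-acting genes, Bard1 (chromosome 1 from 71074109 to 71149546 of mm9) held 10.3 and 9.75 FPKM in ethanol and 9.22 and 8.43 in tamoxifen at 48 h. Its values at 72 h were 16.4 and 13.8 FPKM in ethanol and 10.6 and 9.84 in tamoxifen. The tamoxifen libraries were thus the lower ones at both times, without overlap, and the gap was wider at 72 h. The change was -0.17 ± 0.09 (SE, adjusted p = 0.261) at 48 h and -0.51 ± 0.09 (SE, adjusted p = 0.00154) at 72 h, when tamoxifen stood at 67.8% of ethanol.

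Brca1 (chromosome 11 from 101350078 to 101413269), which encodes the partner of BARD1, varied least between groups. It held 15.8 and 16.0 FPKM in ethanol and 16.4 and 15.1 in tamoxifen at 48 h, and the groups overlapped. By 72 h the values were 16.0 and 16.4 FPKM in ethanol and 15.3 and 14.9 in tamoxifen. These groups did not overlap, yet the change of -0.10 ± 0.06 (SE, adjusted p = 0.268) did not pass, and its 95% interval ran from -0.24 to 0.05. The interval at 48 h ran from -0.16 to 0.13.

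The RNA levels of these partner genes were also compared as a ratio within each library, without a test. The ratio of Bard1 to Brca1 FPKM was 0.653 and 0.612 in ethanol and 0.564 and 0.558 in tamoxifen at 48 h. It was 1.02 and 0.840 in ethanol and 0.692 and 0.660 in tamoxifen at 72 h. The ratio was highest in the ethanol libraries of 72 h and lowest in the tamoxifen libraries of 48 h, with no overlap between treatments at either time. As Brca1 varied little, the ratio mostly repeats the values of Bard1. The ratio of Brip1 to Brca1 was 0.268 and 0.288 in ethanol and 0.204 and 0.176 in tamoxifen at 72 h. It too was without overlap at 72 h, but the treatments overlapped at 48 h.

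Brip1 (chromosome 11 from 85871638 to 86014695), the BRCA1-bound helicase, had the lowest level of the 9. It held 3.10 and 2.96 FPKM in ethanol and 2.76 and 2.88 in tamoxifen at 48 h. At 72 h it held 4.30 and 4.73 FPKM in ethanol and 3.12 and 2.63 in tamoxifen. Only the ethanol libraries of 72 h stood above the range of the other 6. The change was -0.07 ± 0.10 (SE, adjusted p = 0.665) at 48 h and -0.51 ± 0.10 (SE, adjusted p = 0.00257) at 72 h, when tamoxifen stood at 63.7% of ethanol.

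Topbp1 (chromosome 9 from 103207657 to 103252757), the ATR activator, held 38.6 and 39.5 FPKM in ethanol and 36.6 and 39.9 in tamoxifen at 48 h. Its 72 h values were 52.8 and 52.7 FPKM in ethanol and 46.2 and 45.0 in tamoxifen. The groups overlapped at 48 h and were apart at 72 h, and all 4 libraries of 72 h stood above all 4 of 48 h. The change was -0.03 ± 0.06 (SE, adjusted p = 0.785) at 48 h and -0.21 ± 0.06 (SE, adjusted p = 0.0174) at 72 h. Without ethanol 72 h replicate 1 or 2 or tamoxifen 72 h replicate 2 the adjusted p was 0.0695, 0.0671 or 0.0659.

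Among the genes that lead to strand exchange, Brca2 (chromosome 5 from 151325198 to 151372324) held 10.5 and 9.50 FPKM in ethanol and 8.17 and 8.43 in tamoxifen at 48 h. The later values were 12.5 and 11.2 FPKM in ethanol and 8.96 and 7.98 in tamoxifen. The treatments did not overlap at either time. The change was -0.24 ± 0.09 (SE, adjusted p = 0.0997) at 48 h and -0.44 ± 0.09 (SE, adjusted p = 0.00278) at 72 h.

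Palb2 (chromosome 7 from 129250779 to 129276460), the bridge to BRCA1, held 7.40 and 7.23 FPKM in ethanol and 7.70 and 5.87 in tamoxifen at 48 h, with both ethanol values inside the tamoxifen range. At 72 h it held 9.68 and 8.25 FPKM in ethanol and 6.92 and 6.67 in tamoxifen, without overlap. The change was -0.10 ± 0.11 (SE, adjusted p = 0.591) at 48 h and -0.35 ± 0.11 (SE, adjusted p = 0.0322) at 72 h. Its call at 72 h was lost without ethanol replicate 1, tamoxifen replicate 1 or tamoxifen replicate 2 of that time (adjusted p = 0.199, 0.0827 and 0.113) and when low genes were kept in (adjusted p = 0.0763). The ratio of Palb2 to Brca2 FPKM was 0.775 and 0.735 in ethanol and 0.772 and 0.837 in tamoxifen at 72 h, so these partners overlapped in ratio where Bard1 and Brca1 did not.

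**Figure D2:**
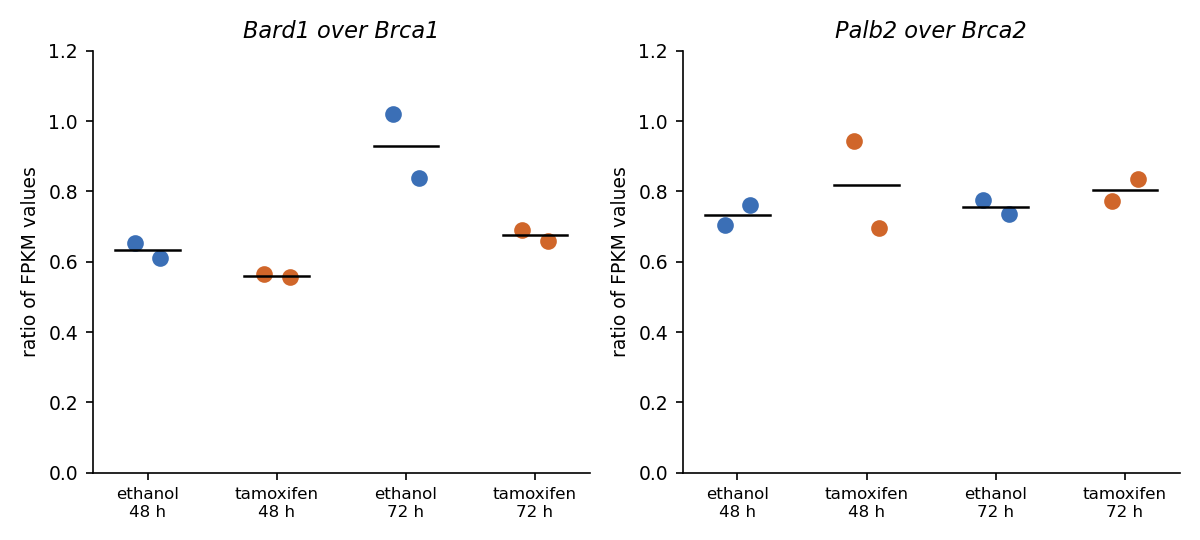
Ratio of FPKM values within each library for Bard1 over Brca1 and for Palb2 over Brca2, with ethanol in blue, tamoxifen in orange and a bar for the group mean. Bard1 over Brca1 reaches 1.02 and 0.840 in ethanol at 72 h and is lower in tamoxifen at both times, while Palb2 over Brca2 overlaps between treatments at both times.

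Rad54l (chromosome 4 from 115769560 to 115796295), the motor of strand invasion, had the largest fall of the 9 at both times. It held 16.9 and 15.9 FPKM in ethanol and 13.4 and 12.4 in tamoxifen at 48 h. After 72 h they were 19.0 and 18.7 FPKM in ethanol and 11.3 and 9.96 in tamoxifen. All 4 tamoxifen libraries stood below all 4 ethanol libraries, and the lowest values were those of tamoxifen at 72 h. The change was -0.32 ± 0.08 (SE, adjusted p = 0.0228) at 48 h and -0.77 ± 0.08 (SE, adjusted p = 5.06e-05) at 72 h, when tamoxifen stood at 56.5% of ethanol. The call at 48 h was lost without ethanol replicate 1 or 2 or tamoxifen replicate 1 or 2 of that time (adjusted p = 0.146, 0.0764, 0.0502 and 0.13). On GRCm38 15.4% of the exon bases of Rad54l are also exon of Lrrc41 on the opposite strand, and whether counting used strand is not given in the sources used here. Lrrc41 stood at 0.16 (adjusted p = 0.171) at 72 h. The same limit holds for Palb2, with 5.64% of its exon bases also exon of Gm16326 on the opposite strand. Gm16326 was not among the genes tested.

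Neither Xrcc2 nor Xrcc3 passed the test with tamoxifen at either time. Xrcc2 (chromosome 5 from 25195634 to 25211615) held 7.70 and 7.42 FPKM in ethanol and 8.54 and 7.82 in tamoxifen at 48 h. At 72 h it held 6.37 and 8.16 FPKM in ethanol and 6.70 and 5.82 in tamoxifen, and the ethanol libraries differed more from each other than the group means did. The change was 0.10 ± 0.11 (SE, adjusted p = 0.594) at 48 h and -0.18 ± 0.11 (SE, adjusted p = 0.22, 95% interval -0.42 to 0.06) at 72 h. Without ethanol 72 h replicate 1 it was -0.34 and passed (adjusted p = 0.046).

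Xrcc3 (chromosome 12 from 113041404 to 113052052) held 4.72 and 5.00 FPKM in ethanol and 3.74 and 4.33 in tamoxifen at 48 h. At 72 h it held 5.55 and 5.64 FPKM in ethanol and 5.62 and 5.86 in tamoxifen. Tamoxifen was the lower treatment at 48 h, and the groups overlapped at 72 h. The change was -0.22 ± 0.09 (SE, adjusted p = 0.133) at 48 h and 0.03 ± 0.09 (SE, adjusted p = 0.797, 95% interval -0.16 to 0.23) at 72 h. Its sign at 72 h was not fixed, with -0.007 after quantile normalization. The ratio of Xrcc3 to Xrcc2 FPKM was 0.613 and 0.674 in ethanol at 48 h, 0.871 and 0.691 in ethanol at 72 h, 0.438 and 0.554 in tamoxifen at 48 h and 0.839 and 1.01 in tamoxifen at 72 h. It was thus higher at 72 h than at 48 h in tamoxifen, without overlap, while the treatments overlapped at 72 h.

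**Figure D3:**
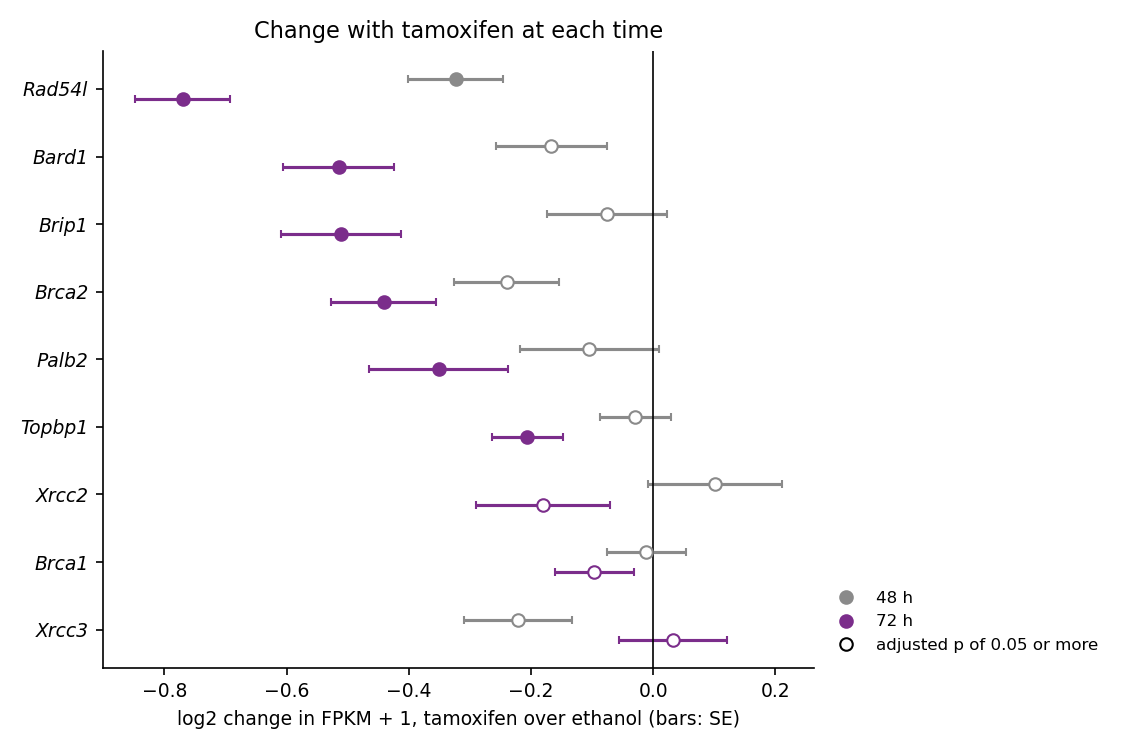
Change of each gene in log2(FPKM + 1), tamoxifen over ethanol, at 48 h in grey and 72 h in purple, with bars for the SE and open points for an adjusted p of 0.05 or more. Rad54l reaches -0.77 at 72 h and is the only filled point at 48 h (-0.32), while Xrcc2, Brca1 and Xrcc3 are open at both times.

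The difference between the change at 72 h and that at 48 h passed for 0 of 9 members, beside 1.45% of all genes with a lower and 2.00% with a higher difference. It was largest for Rad54l (-0.45 ± 0.11 SE, adjusted p = 0.054), Brip1 (-0.44 ± 0.14 SE, adjusted p = 0.112) and Bard1 (-0.35 ± 0.13 SE, adjusted p = 0.157). The median over the 9 was -0.25. No member's change was thus shown to differ between the times after adjustment. Rad54l passed after quantile normalization (-0.46, adjusted p = 0.0486), with a pseudocount of 5 (-0.35, adjusted p = 0.0483) and without tamoxifen 72 h replicate 1 (-0.53, adjusted p = 0.0455).

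The 48 h and 72 h libraries were also compared within each treatment. The names of the deposited files carry a different number for each time, whose meaning is not given in the sources used here, so time and whatever it stands for cannot be told apart. In ethanol, from 48 h to 72 h, 4 of 9 members rose and 0 fell, where 38.0% of all genes rose and 19.2% fell and the median of all genes was 0.11, so the members' count is near that of all genes. Bard1 rose by 0.54 ± 0.09 (SE, adjusted p = 0.000595), Brip1 by 0.45 ± 0.10 (SE, adjusted p = 0.00278), Topbp1 by 0.42 ± 0.06 (SE, adjusted p = 0.000155) and Brca2 by 0.23 ± 0.09 (SE, adjusted p = 0.0446). For 8 of 9 members, all but Xrcc2, both 72 h libraries lay above both 48 h libraries, against 50.8% of all genes. Brca1 stood at 0.03 ± 0.06 (SE, adjusted p = 0.71). Palb2 (0.26, adjusted p = 0.0743) and Rad54l (0.19, adjusted p = 0.0556) missed the threshold, and passed when the 4 ethanol libraries were fitted alone (adjusted p = 0.0328 and 0.0301). Palb2 also passed without tamoxifen 48 h replicate 1 or 2 or ethanol 72 h replicate 2 (adjusted p = 0.0316, 0.0308 and 0.049), and Rad54l without tamoxifen 72 h replicate 1 or 2 (adjusted p = 0.037 and 0.0364). Median-ratio scaling took the median of all genes to 0.00 and the calls over all genes from 4506 rises and 2278 falls to 3343 and 3371. Brca2 then stood at 0.11 (adjusted p = 0.317), and after quantile normalization Brip1 stood at 0.22 (adjusted p = 0.0964). The rise of Brca2 was also lost when low genes were kept in (adjusted p = 0.0742), without the mean trend (adjusted p = 0.0512), and without ethanol 48 h replicate 2 (adjusted p = 0.244), ethanol 72 h replicate 1 (adjusted p = 0.249), tamoxifen 48 h replicate 1 (adjusted p = 0.0537) or tamoxifen 48 h replicate 2 (adjusted p = 0.0539).

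In tamoxifen, over the same interval, 2 of 9 members rose and 2 fell, where 37.5% of all genes rose and 19.6% fell, with a median of 0.115 over all genes. The share of members that fell is near that of all genes. Xrcc3 rose by 0.42 ± 0.09 (SE, adjusted p = 0.00227) and Topbp1 by 0.25 ± 0.06 (SE, adjusted p = 0.00427). Rad54l fell by 0.26 (SE 0.08, adjusted p = 0.0171) and Xrcc2 fell by 0.34 (SE 0.11, adjusted p = 0.0224). Brip1, Brca2 and Palb2 stood at 0.02, 0.02 and 0.01, beside 0.45, 0.23 and 0.26 in ethanol. After median-ratio scaling the calls over all genes were 3316 rises and 3311 falls against 4446 and 2328, Topbp1 stood at 0.13 (adjusted p = 0.0888) and Brca1 fell (-0.17, adjusted p = 0.0468). Xrcc3 stood at 0.21 (adjusted p = 0.0635) after quantile normalization. Rad54l and Xrcc2 lost their calls without tamoxifen 48 h replicate 1 (adjusted p = 0.109 and 0.115) or tamoxifen 72 h replicate 2 (adjusted p = 0.123 and 0.139). The tamoxifen and ethanol libraries enter both these time comparisons and the treatment comparisons above, so the pairs of values share libraries.

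**Figure D4:**
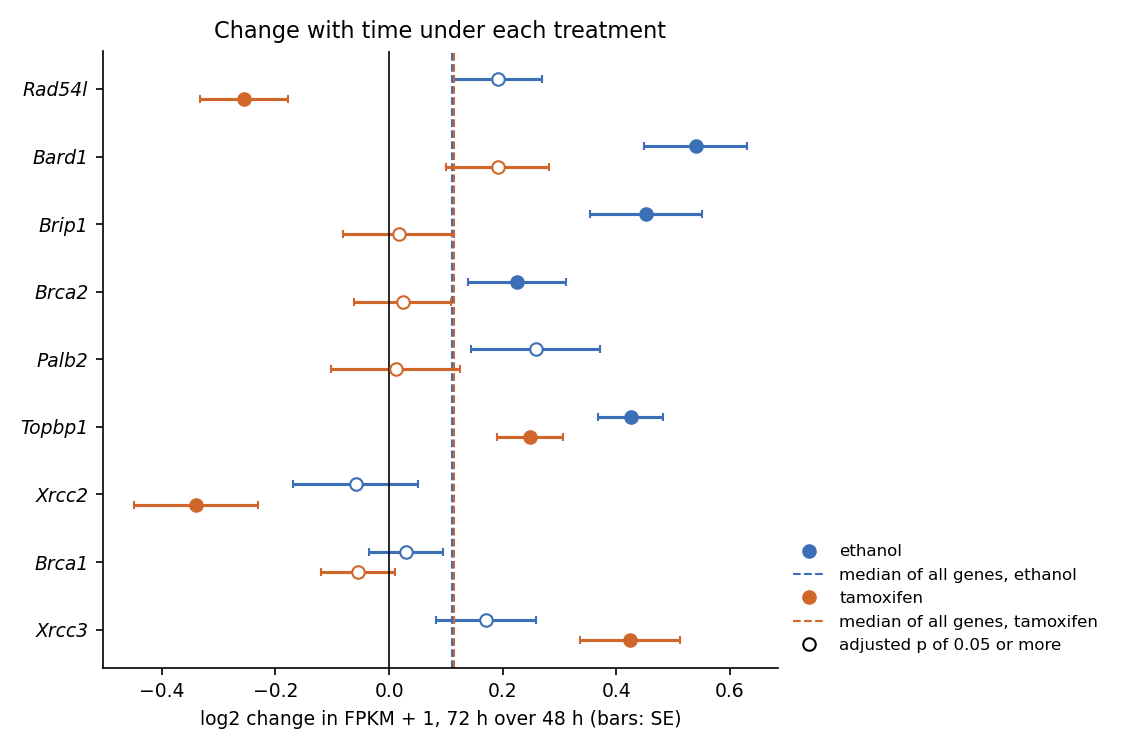
Change of each gene in log2(FPKM + 1) from 48 h to 72 h under ethanol in blue and tamoxifen in orange, with bars for the SE, open points for an adjusted p of 0.05 or more and dashed lines at the medians of all genes (0.11 and 0.115). The ethanol point lies to the right of the tamoxifen point for 8 of 9 genes, beside 6160 of 11867 genes tested, and Xrcc3 is the exception. This gap is the difference between the treatment changes at 72 h and 48 h, which passed for 0 of 9 genes.

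The authors' deposited table of comparisons, made from scaled counts with their own test, called Rad54l (-0.38, adjusted p = 0.00158) and Brca2 (-0.22, adjusted p = 0.0486) lower with tamoxifen at 48 h, 2 of 9 members against 5.31% of its genes. At 72 h the authors' deposited table called 6 of 9 members lower, against 15.5% of its genes. In the authors' deposited table the changes at 72 h were -0.81 for Rad54l, -0.74 for Brip1, -0.65 for Bard1, -0.59 for Brca2, -0.41 for Palb2 and -0.25 for Topbp1, as log2 of tamoxifen over ethanol. Brca1 (-0.16, adjusted p = 0.0833), Xrcc2 (-0.20, adjusted p = 0.174) and Xrcc3 (0.04, adjusted p = 0.985) did not pass in the authors' deposited table at 72 h. That table was made from the libraries used here and is no separate experiment.

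The other genes of the pathway were counted in the same way. Of 49 other homologous recombination genes 14 fell and 2 rose at 72 h, with a median of -0.15, where 18.5% of all genes fell and 20.1% rose. At 48 h 4 fell and 1 rose, with a median of -0.08, where 4.47% of all genes fell and 7.88% rose. Mcm8, part of a helicase active in this repair, fell at 72 h from 12.9 ± 0.31 to 7.18 ± 0.65 FPKM (SD, n = 2 each, -0.77 ± 0.11 SE, adjusted p = 0.000588). Rad51c, which forms a complex with XRCC3, fell from 9.53 ± 0.53 to 6.60 ± 0.02 FPKM (-0.47 ± 0.10 SE, adjusted p = 0.00514). Both rises were Sfr1, an accessory factor of strand exchange (0.30 ± 0.05 SE, adjusted p = 0.00138), and Slx4, a nuclease scaffold (0.35 ± 0.09 SE, adjusted p = 0.0155).

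Neighbouring repair and replication lists differed at 72 h in how many genes fell, and each count is to be read against the 18.5% of all genes that fell and the 20.1% that rose. In the Fanconi anaemia list, which handles crosslinks together with BRCA2, PALB2 and BRIP1, 9 of 14 fell and 1 rose (median -0.28). Fancd2 fell from 19.9 ± 0.66 to 11.5 ± 0.56 FPKM (SD, n = 2 each, adjusted p = 2.25e-05) and Fancl from 20.0 ± 0.45 to 11.2 ± 0.54 FPKM (adjusted p = 7.66e-05). Of 15 checkpoint genes, which include the ATR branch that TOPBP1 activates, 8 fell and 0 rose (median -0.19), Hus1 by a log2 change of -0.49 (adjusted p = 0.00035) and Tipin by -0.50 (adjusted p = 0.000447). Of 20 genes of end joining and the 53BP1 branch, the main rival of homologous recombination, 5 fell and 3 rose (median -0.09), which is near those shares, with Rif1 at -0.36 (adjusted p = 0.000352) and Xrcc5 at -0.42 (adjusted p = 0.000565). In the DNA replication list 26 of 48 fell and 1 rose (median -0.195), with Pole2 at -0.73 (adjusted p = 0.000184) and Prim1 at -0.42 (adjusted p = 0.000424). The part of these replication genes in the fall of the recombination genes was not tested.

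At 72 h 33 of 34 fibroblast markers and 21 of 25 p53 targets rose, and 9 of 16 pluripotency markers fell. In the pluripotency list 12 of 16 stood below 0. Pou5f1 (0.10), Utf1 (0.11), Dppa4 (0.08) and Dppa2 (0.14) stood above 0 and did not pass. The largest changes by p in the fibroblast list were Acta2 (1.503, adjusted p = 3.6e-07) and Col1a1 (1.19, adjusted p = 5.76e-07), in the p53 list Mdm2 (2.00, adjusted p = 7.74e-08) and Zfp365 (1.83, adjusted p = 1.09e-07), and in the pluripotency list Nr5a2 (-0.93, adjusted p = 6.11e-05) and Fbxo15 (-0.65, adjusted p = 6.27e-05), all at 72 h. At 48 h 32 of 34 fibroblast markers (median 0.525) and 19 of 25 p53 targets (median 0.52) rose, and 1 of 16 pluripotency markers fell (median -0.035). Some p53 targets on that list, Zfp365 and Ddit4l among them, had been picked for their rise in these libraries.

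**Figure D5:**
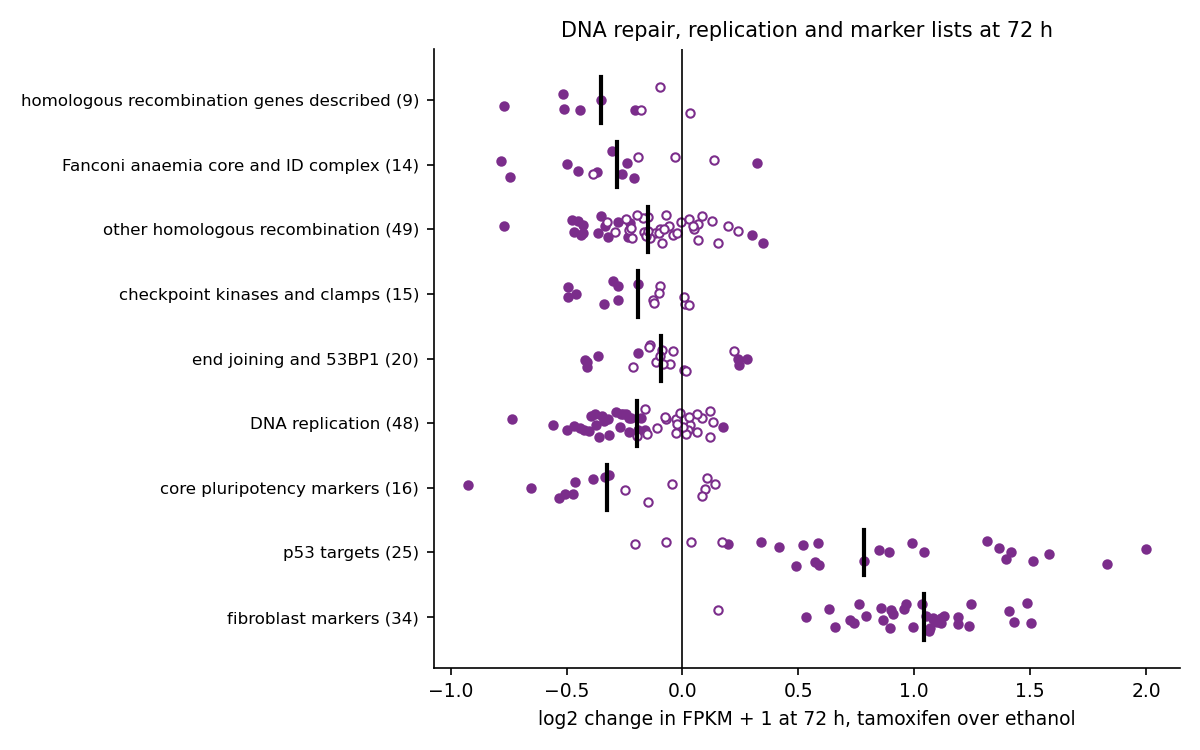
Change of each gene in log2(FPKM + 1) at 72 h, tamoxifen over ethanol, by list, with the number of genes in brackets, filled points for an adjusted p under 0.05, open points for the rest and a bar at the median. The 9 genes described have a median of -0.35, the 49 other recombination genes -0.15, and the fibroblast markers 1.04.

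The members did not all follow one pattern. Against the mean of the 9, each standardised over the 8 libraries, Brip1, Brca2 and Bard1 had Pearson correlations of 0.959, 0.931 and 0.927, and Palb2 and Rad54l 0.878 and 0.868. Topbp1 (0.715) and Brca1 (0.701) followed less closely, Xrcc3 stood at 0.383 and Xrcc2 at 0.087. These values describe 8 libraries in 4 groups, and each gene is part of the mean. Outside the members, the 5 tested genes whose values were most like that mean were 3110002H16Rik (0.996), Atg4d (0.993), Mier3 (0.982), Pfkl (0.980) and Uhrf1bp1l (0.979). Atg4d, which encodes an autophagy protease, stood at mean FPKM values of 11.3 and 10.2 at 48 h and 15.2 and 10.2 at 72 h, in ethanol and tamoxifen.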

How the data were processed

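RNA of 8 libraries in 4 groups was sequenced as paired ends, per the labels' protocols. The authors deposited 1 table for each library, with FPKM values and their confidence bounds. The submitters' processing notes name BWA 0.6.1, TopHat 1.4.1, Cufflinks 1.3.0, HTSeq, DESeq and the build mm9, without their roles. The authors' deposited comparison tables hold, per the file headers, group means of counts divided by size factors (a signal), a ratio, a log2 fold change and p-values. That log2 fold change is ethanol over tamoxifen, per the file headers, so its sign was turned here.

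Of 20789 entries 209 without status OK in all libraries were left out, and where an identifier had several entries the most abundant one was used. Genes with at least 1 FPKM in at least 2 libraries were tested (11867). Limma 3.58.1 (R 4.3.3) was fitted to log2(FPKM + 1) of all 8 libraries with a mean per group, 4 residual degrees of freedom and a mean trend. Tests were two-sided, with Benjamini-Hochberg adjustment over all genes, and calls were made at an adjusted p under 0.05. The fit was tested on simulated data. Fragments behind a value came from the distance to its upper bound, read as 2 Poisson SD, and cover counting error only. Starts of mm9 positions were raised by 1, since 6933 of 7763 genes within 2 bases of their GRCm38 length had an end minus start equal to it.

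The members and lists were chosen with earlier results of these data known. Named genes were the 9 members, Htatsf1, the called genes of smallest p at 72 h in each list (2, or up to 3 per direction for the recombination list) and the 5 most correlated genes, and other names were chosen after values were seen. Of these, 1 gene is not reported here. Alternatives were median-ratio scaling, quantile normalization, pseudocounts of 0.1 and 5, no filter, no trend, the 4 libraries of a contrast alone, a replicate block and each library left out.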

Additional observations from a re-analysis of the deposited data

How the results depend on the processing

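The count of 6 falls at 72 h was 4 to 6 when single libraries were left out, 5 without the filter on low values and 6 under the other 7 alternatives, and Rad54l, Bard1, Brip1 and Brca2 passed under all 16. The 1 fall at 48 h (Rad54l) became 0 without the filter and 0 to 1 when single libraries were left out. For the difference between the changes, the count of lower members was 0, and 1 after quantile normalization, with a pseudocount of 5 and, over libraries left out, 0 to 1. The count of rises with time in ethanol was 4, 2 after quantile normalization, 3 with low genes kept in, with no trend or with median-ratio scaling, 5 with a pseudocount of 5, 6 with the 4 libraries alone and 3 to 5 when single libraries were left out. With time in tamoxifen the count of rises was 2, and 1 after median-ratio scaling and after quantile normalization, while the falls numbered 2, with 1 when low genes were kept in, 3 under median-ratio scaling and 0 to 2 when single libraries were left out. The causes of these moves were not tested. No call of a member changed its direction. Replicate numbers did not pair the libraries: the correlations of deviations between groups of like number ran from -0.276 to 0.145. With the replicate block the counts of falls were 1 at 48 h and 6 at 72 h, and the count of rises in ethanol was 6, with Palb2 (adjusted p = 0.0429) and Rad54l (adjusted p = 0.0388) added. Over all genes the block gave 844 rises and 441 falls at 48 h and 2310 and 2099 at 72 h. Depth limits Xrcc3 and Brip1 most, whose values rest on as few as 93 and 180 implied fragments.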

Other observations

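Several members start close to a gene read in the other direction. On GRCm38 in GENCODE M21, Palb2 starts 95 bases from Dctn5, Rad54l 150 bases from Pomgnt1, Brca1 194 bases from Nbr1, Topbp1 245 bases from 1300017J02Rik and Xrcc3 291 bases from Zfyve21. At 72 h with tamoxifen Pomgnt1, which encodes a glycosyltransferase, fell (-0.33 ± 0.09 SE, adjusted p = 0.0131) in the libraries in which Rad54l fell by 0.77. Dctn5 stood at 0.07 (adjusted p = 0.598) beside the fall of Palb2 by 0.35. Nbr1 stood at -0.13 (adjusted p = 0.121) and Zfyve21 at 0.12 (adjusted p = 0.374), and 1300017J02Rik was not among the genes tested. Klc1, which shares 12 exon bases with Xrcc3 on the opposite strand, rose (0.31 ± 0.07 SE, adjusted p = 0.00774). These neighbours were chosen after the values of the members were seen.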
